A study of Rattus norvegicus with 20 samples.

Results

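The expression of 10 genes typical of white adipocytes (Adipoq, Fabp4, Pparg, Lep, Plin1, Cidec, Cfd, Retn, Lpl and Lipe) was measured in vessels isolated from the kidneys of male rats of the Wistar Kyoto strain. The genes were chosen by name, with earlier results of these data known. Each had 1 transcript on the RaGene2.0_st array, so that 10 of the 18511 transcripts with 1 gene symbol, and of 36685 transcripts in all, are described. The 4 groups were MatSep P180, adult rats at postnatal day 180 (P180) that had been taken from their dam daily as pups (maternal separation, MatSep), control P180, rats of that age that had not been separated, MatSep P10, pups at postnatal day 10 (P10) that were still within the period of separation, and control P10, pups that had not been separated. Each group had 5 biological replicates with 1 array each. At both ages the kidney was stripped of its capsule and grated through a sieve, whose mesh was finer for the pups, so that preparation and age cannot be told apart. Total RNA was taken from the frozen vessels. The labels call the control rats littermates, whereas the paper's methods describe the controls as whole litters left with their mother. By that account litter goes with treatment. The litter of no rat is given, so rats of a litter cannot be matched, and rats of a group may share one. The p-values measure the spread between these rats only.

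White adipocytes keep triglyceride in a single large lipid droplet, take fatty acids from blood lipoproteins, release them again by lipolysis and secrete hormones. The nuclear receptor PPAR-gamma, the product of Pparg, drives adipocyte differentiation and switches on most of the other genes described here. Fat tissue surrounds the renal pelvis, the hilum and the larger renal vessels. In neonatal rodents much of the perirenal fat is brown, that is, it burns fatty acids for heat through the uncoupling protein Ucp1. Some of the 10 genes are also active in other cells: Fabp4 is made by capillary endothelium and macrophages, Lpl by macrophages and muscle, and Pparg by the collecting duct.

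Values are log2 of the normalized signal intensity that the authors deposited. The median of an array over all 36685 transcripts was 6.00 to 6.18. Markers of endothelium and smooth muscle were bright, with a mean log2 intensity over 9 endothelial genes of 9.24 to 10.08 and over 6 smooth muscle genes of 8.77 to 11.42 in single arrays, and 8 proximal tubule genes averaged 11.26 to 12.33, so tubule RNA was present in every array. Among the P10 controls, replicates 2 and 3 stood apart from the others, with the 2 highest of 5 values for all 10 adipocyte genes. The calls at P10 are also given with each of these 2 left out in turn, not with both left out. In arrays of whole tissue, fewer cells of a type and less RNA per cell cannot be told apart. A change passed the test at an adjusted p under 0.05 in limma, fitted to all tested transcripts.

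RefSeq (build GRCr8) gave 8 promoters of 300 bases around the transcription start for 7 of the 10 genes, with 2 for Pparg and none for Fabp4, Lpl or Lipe. Since the genes moved together between arrays, these promoters were searched on both strands for 2 motifs that adipocyte factors bind. The element bound by PPAR-gamma with its partner RXR, AGGTCA repeated in the same direction with 1 base of any kind between, was in 0 of the 8, against 0.0538% of 33469 rat promoters. A looser form, with any base at the fourth position of each AGGTCA, was also in 0, against 0.415%. Both forms are so rare that 0 of 8 does not set these promoters apart. Sites outside the 300 bases were not searched. The C/EBP motif TTGCNNAA was in 4 of the 8, against 10.6% of all promoters, and the strict form TTGCGCAA, which is part of it, was in that of Lep, against 0.17%. The 4 promoters with the C/EBP motif are shown 5′ to 3′, with the motif in capitals. They are Lep (chr4:58626288-58626587, plus strand), Plin1 (chr1:143086099-143086398, minus strand), Cidec (chr4:148137066-148137365, minus strand) and the second promoter of Pparg (chr4:150154522-150154821, plus strand). A match is a description of these letters and was not tested against the expression values.
Lep: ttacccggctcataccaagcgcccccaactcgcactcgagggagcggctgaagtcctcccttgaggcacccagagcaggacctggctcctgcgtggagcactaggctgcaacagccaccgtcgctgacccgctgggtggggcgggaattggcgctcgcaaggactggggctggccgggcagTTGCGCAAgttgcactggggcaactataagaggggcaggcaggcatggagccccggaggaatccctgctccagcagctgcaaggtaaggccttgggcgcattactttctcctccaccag
Plin1: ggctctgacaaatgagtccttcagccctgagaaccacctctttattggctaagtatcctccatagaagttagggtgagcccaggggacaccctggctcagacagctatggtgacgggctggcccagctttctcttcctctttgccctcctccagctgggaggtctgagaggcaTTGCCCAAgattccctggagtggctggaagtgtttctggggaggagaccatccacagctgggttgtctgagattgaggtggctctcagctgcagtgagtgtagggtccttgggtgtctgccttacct
Cidec: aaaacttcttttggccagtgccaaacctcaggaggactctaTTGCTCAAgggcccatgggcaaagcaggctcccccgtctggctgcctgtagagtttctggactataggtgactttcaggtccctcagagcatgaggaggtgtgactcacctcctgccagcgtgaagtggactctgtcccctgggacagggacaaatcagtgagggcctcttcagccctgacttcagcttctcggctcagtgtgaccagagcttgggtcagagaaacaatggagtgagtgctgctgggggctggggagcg
Pparg: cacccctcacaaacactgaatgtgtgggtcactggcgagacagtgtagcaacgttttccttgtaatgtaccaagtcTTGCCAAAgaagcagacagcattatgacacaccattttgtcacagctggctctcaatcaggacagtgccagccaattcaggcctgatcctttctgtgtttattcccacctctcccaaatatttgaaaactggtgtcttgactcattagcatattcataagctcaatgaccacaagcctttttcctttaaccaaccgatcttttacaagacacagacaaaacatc

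At P10 all 10 genes had a higher mean in MatSep than in control pups. The mean differences ran to 4.22-fold for Adipoq, 4.03-fold for Fabp4 and 3.40-fold for Plin1, and 1.58-fold for Cfd was the smallest. None of the 10 passed the adjusted test, in which 0.0162% of all tested transcripts (3 of 18511) were called. All 10 had an unadjusted limma p under 0.05 with the higher mean in MatSep, against 5.1% of all tested transcripts. These p-values rest on a spread pooled over all 4 groups, adults included. For Adipoq the SD was 0.107 in MatSep P180 and 0.647 in control P180, against 0.708 in MatSep P10 and 1.794 in control P10. The exact permutation test, which uses the 10 pups alone, gave a p under 0.05 for 1 of the 10 genes (Lep). The share of all transcripts with such an exact p is not given. The 10 genes moved together across the pups, so they are not independent. Counts of the 10 beside shares of all transcripts, here and below, are descriptions and no test of enrichment. Their median difference was 0.99 on the log2 scale, against -0.01 over all tested transcripts. For no gene were the MatSep and control pups fully apart, against 0.724% of transcripts with every MatSep pup above every control.

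Pparg, the adipogenic nuclear receptor, had log2 intensities of 7.39, 9.27, 8.71, 8.36 and 7.96 in MatSep P10 replicates 1 to 5, against 6.62, 8.86, 8.59, 6.07 and 7.13 in control P10 replicates 1 to 5. Control replicates 2 and 3 lay among the MatSep pups and the other 3 controls below them. The mean difference was 0.89 (SE 0.43, 95% interval 0.00 to 1.77, adjusted p = 0.517, exact permutation p = 0.198), and 0.54 without control replicate 4, the lowest of the 10 pups.

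Lpl, the lipoprotein lipase that frees fatty acids from circulating triglyceride, was at 9.65, 10.68, 10.66, 10.47 and 10.07 in MatSep pups, against 9.19, 10.51, 10.06, 8.97 and 9.07 in control pups. The same 3 controls lay below every MatSep pup, and the difference was 0.75 (SE 0.25, adjusted p = 0.318). Fabp4, the fatty acid binding protein of the adipocyte cytosol, was at 9.51, 11.22, 11.12, 11.03 and 10.10 in MatSep pups, against 7.88, 11.11, 10.03, 6.09 and 7.82 in control pups. The controls of Fabp4 were spread over 5.02 log2 units (32.5-fold in intensity), and only 1 of the 18511 transcripts had a larger SD among these 5 arrays. The difference in Fabp4 was 2.01 (SE 0.68, 95% interval 0.59 to 3.43, adjusted p = 0.329, exact permutation p = 0.0794).

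Of the genes of the lipid droplet, Plin1, perilipin 1, which coats the droplet and gates lipolysis, was at 8.02, 9.56, 10.17, 9.51 and 8.69 in MatSep pups, against 6.24, 9.38, 9.15, 5.66 and 6.72 in control pups. Control replicates 1, 4 and 5 lay below every MatSep pup, and the difference was 1.76 (SE 0.62, adjusted p = 0.343). Cidec, which fuses small droplets into a large one, was at 7.37, 8.74, 8.18, 8.44 and 7.13 in MatSep pups, against 6.39, 8.31, 6.91, 6.43 and 6.24 in control pups. Here control replicate 2 alone lay among the MatSep pups, and the difference was 1.11 (SE 0.36, adjusted p = 0.318, exact permutation p = 0.0635). Lipe, hormone-sensitive lipase, which splits stored diglyceride, was at 8.18, 9.53, 9.82, 9.36 and 8.39 in MatSep pups, against 7.12, 9.12, 9.01, 7.23 and 7.32 in control pups. Again 3 controls lay below all MatSep pups, with a difference of 1.1 (SE 0.37, adjusted p = 0.329).

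Among the secreted products, Adipoq, adiponectin, a hormone made almost wholly by adipocytes, was at 8.68, 10.54, 10.08, 9.71 and 9.38 in MatSep pups, against 7.15, 9.98, 8.83, 5.5 and 6.55 in control pups. Its controls were spread over 4.48 log2 units (22.2-fold in intensity), and 3 of the 18511 transcripts had a larger SD among them. The difference was 2.08 (SE 0.58, 95% interval 0.87 to 3.28, adjusted p = 0.233, exact permutation p = 0.0635).

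Lep, leptin, which signals the size of the fat stores to the brain, was dim and at 4.91, 6.17, 5.62, 6.12 and 5.31 in MatSep pups, against 4.65, 5.14, 4.88, 4.63 and 4.63 in control pups. In all, 4 of the MatSep pups lay above every control, so Lep had the least overlap of the 10 genes. Its difference of 0.84 (SE 0.18, 95% interval 0.46 to 1.22) had the smallest adjusted p of the 10, 0.143, and the one exact permutation p under 0.05 among them, 0.0159. Over the 252 arrangements of 5 against 5, 0.00794 is the smallest p that test can give. Cfd, adipsin or complement factor D, which starts the alternative complement pathway, was at 6.01, 7.12, 7.08, 6.67 and 6.18 in MatSep pups, against 5.56, 6.62, 6.25, 5.62 and 5.71 in control pups (difference 0.66, SE 0.23, adjusted p = 0.339). Retn, resistin, a hormone of rodent adipocytes, was at 5.22, 7.09, 6.89, 6.83 and 6.43 in MatSep pups, against 4.80, 6.71, 6.15, 4.90 and 5.47 in control pups (difference 0.88, SE 0.37, adjusted p = 0.456). For Cfd and Retn control replicates 2 and 3 again lay within the range of the MatSep pups, and for Retn so did control replicate 5 (5.47).

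**Figure D1:**
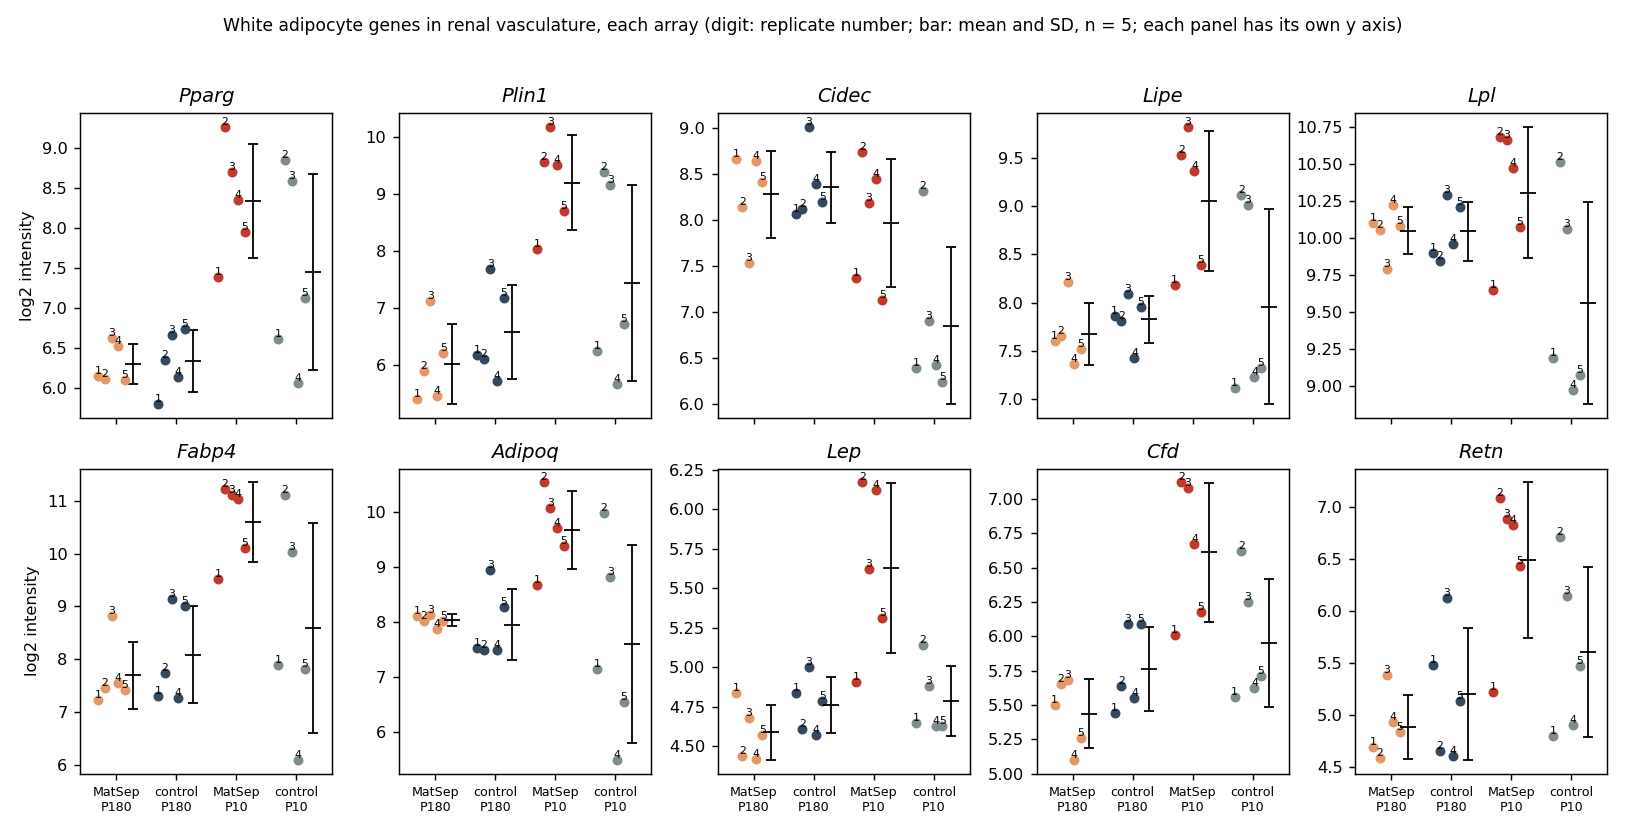
Log2 intensity of each of the 10 genes (1 panel each, y axes differ) in each array of MatSep P180, control P180, MatSep P10 and control P10, with the replicate number above each point and the mean and SD (n = 5) beside the points. Adipoq and Fabp4 spread over 4.48 and 5.02 log2 units in control P10, whereas Adipoq spread over 0.28 in MatSep P180.

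Single arrays moved as a block across the genes. Control replicate 2 held the highest of the 5 control values for all 10 genes and control replicate 3 was in the top 2 for all 10, while control replicates 1, 4 and 5 held the lower 3 for all 10. In MatSep pups replicate 2 was highest for 8 genes and replicate 3 for the other 2, and replicate 1 was lowest for 9 genes. Of all 10 pups, MatSep replicate 2 was in the top 3 for 10 genes, and control replicates 1 and 4 were in the bottom 3 for 10 genes each.

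**Figure D2:**
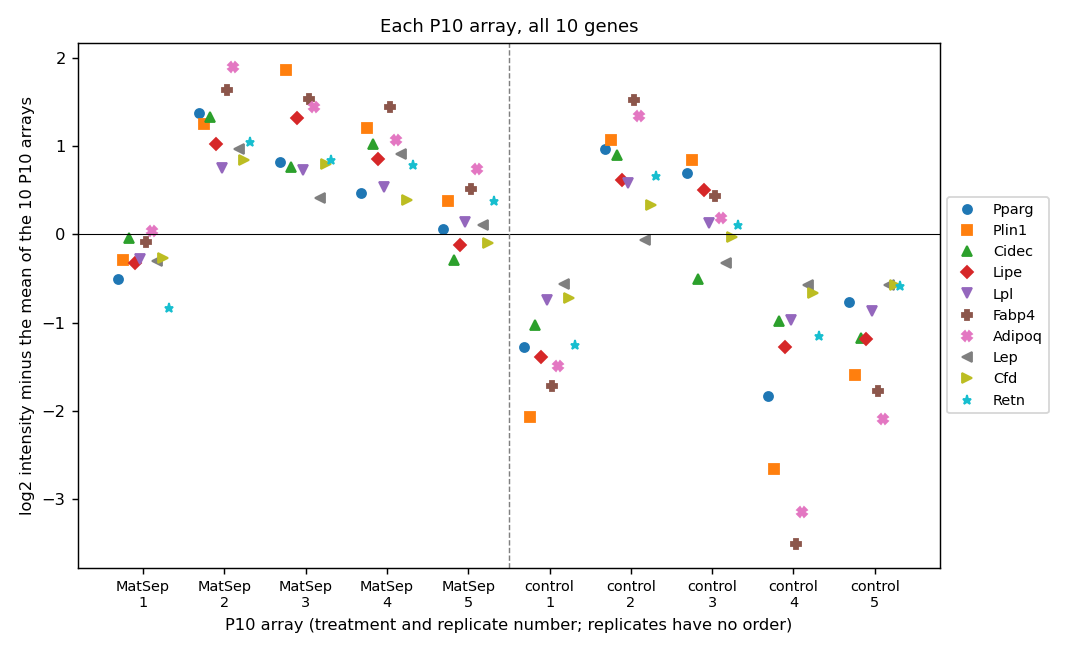
Log2 intensity of each gene in each P10 array, minus that gene's mean over the 10 P10 arrays, with MatSep arrays left of the dashed line and control arrays right of it. Within an array most genes lie on the same side of 0, and control replicates 1, 4 and 5 lie below 0 for every gene.

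Leaving out single arrays changed the calls at P10. The share of all tested transcripts called in these fits is not given, so the counts of genes cannot be set against it. Without control replicate 2, the difference in Adipoq was 2.67 and 5 genes passed the test, all higher in MatSep (Adipoq, adjusted p = 0.0143, Cidec, 0.0281, Lep, 0.0318, Lpl, 0.0368, and Fabp4, 0.0461). Without control replicate 3, which also stood high, none passed and the difference in Adipoq was 2.38. Without MatSep replicate 1, the lowest MatSep pup, Lep alone passed (difference 1.02, adjusted p = 0.0102), and without any one of the other 17 arrays none did. Without control replicate 4, the lowest pup for Adipoq, its difference was 1.55 (adjusted p = 0.565).

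At P10 the numbers that the labels give the samples fell into 2 runs, 14 to 17 and 19 to 24, and each run held as many MatSep as control pups. What a run stands for is not given. All 10 genes had the higher mean in MatSep within both runs, by 0.32 (Lpl) to 1.04 (Adipoq) in the run 14 to 17, with 2 pups of each kind, and by 0.78 (Cfd) to 2.77 (Fabp4) in the run 19 to 24, with 3 of each kind.

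At P180 the 10 genes showed no detectable difference between MatSep and control rats. None passed the adjusted test, in which 0.0324% of all tested transcripts were called, and none had an unadjusted p under 0.05, against 2.65% of transcripts higher and 3.11% lower. The mean was lower in MatSep for 8 of the 10 genes, with a median difference of -0.16, against 0.00 over all tested transcripts. The largest difference was that of Plin1, -0.56 (95% interval -1.86 to 0.74). The intervals of Adipoq (-1.13 to 1.29) and Fabp4 (-1.82 to 1.03) reached beyond 1 log2 unit either way. All of these intervals rest on the spread pooled over all 4 groups, so the wider spread of the pups enters them. The SD of Adipoq was 0.647 in control P180 against 1.794 in control P10, and that of Fabp4 was 0.918 against 1.986. Intervals from the adults alone are not given.

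The adult values of Plin1 were 5.39, 5.88, 7.11, 5.45 and 6.20 in MatSep P180 replicates 1 to 5, against 6.17, 6.09, 7.68, 5.71 and 7.16 in control P180 replicates 1 to 5. One rat of each group, replicate 3, was the highest of its group. Fabp4 was at 7.23, 7.45, 8.82, 7.55 and 7.41 in MatSep rats, against 7.30, 7.73, 9.14, 7.26 and 9.0 in control rats. MatSep replicate 3 stood apart from the other MatSep rats there, and control replicates 3 and 5 from the other controls. Adipoq was at 8.11, 8.03, 8.14, 7.87 and 8.02 in MatSep rats, against 7.54, 7.5, 8.94, 7.5 and 8.28 in control rats. Its SD was 0.107 in MatSep rats, below the median SD of all tested transcripts in that group (0.144), and 0.647 in control rats. The difference in Adipoq was 0.08 (SE 0.58, exact permutation p = 0.762).

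The remaining adult values overlapped between the groups for each gene. Pparg averaged 6.31 ± 0.25 in MatSep and 6.34 ± 0.39 in control rats (SD, n = 5 each), Lipe 7.68 ± 0.32 and 7.83 ± 0.25, and Lpl 10.05 ± 0.16 and 10.04 ± 0.20. Lep averaged 4.59 ± 0.18 in MatSep and 4.76 ± 0.18 in control rats, and Lep was dim in all adults, at 4.42 to 5.0. Retn averaged 4.89 ± 0.31 in MatSep and 5.2 ± 0.63 in control rats. Cfd was at 5.5, 5.65, 5.68, 5.10 and 5.26 in MatSep rats, against 5.44, 5.64, 6.09, 5.55 and 6.09 in control rats. All 5 MatSep values of Cfd were below the control mean, and its difference was -0.32 (95% interval -0.80 to 0.15). Control replicate 3 held the highest of the 10 adult values for 8 of the 10 genes.

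Within the runs of sample numbers at P180, the sign of the difference was not the same in both runs for Pparg, Cidec, Lpl and Retn. Cidec differed by -0.29 in the run 1 to 6, with 3 rats of each kind, and by 0.24 in the run 8 to 11, with 2 of each kind. Cfd differed by -0.11 and -0.64 in these runs.

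**Figure D3:**
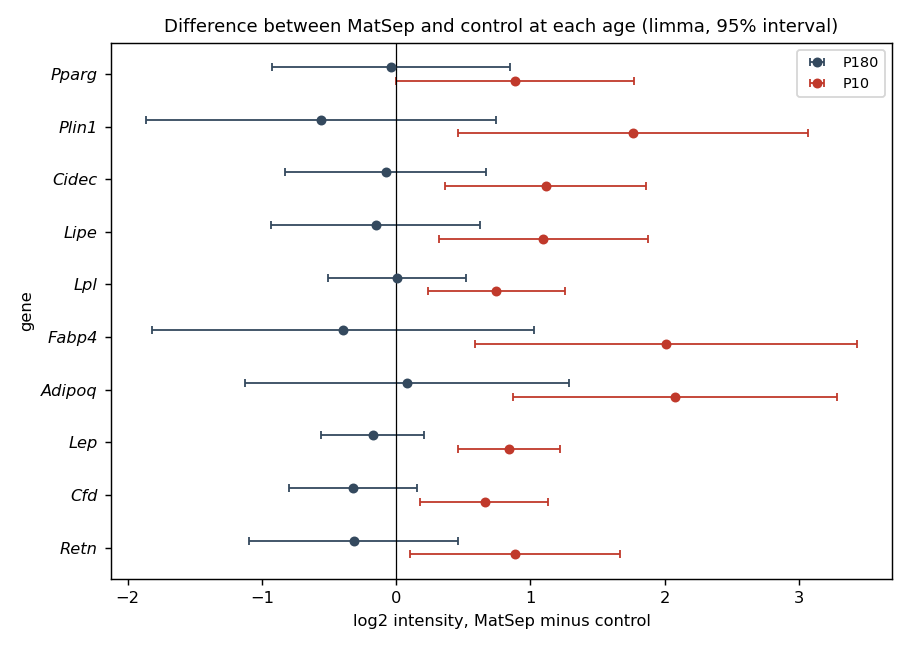
Difference in mean log2 intensity between MatSep and control rats for each gene at P180 (dark, upper point of each pair) and P10 (red, lower point), with the 95% interval of the limma fit. At P180 every interval holds 0, and at P10 each mean difference is above 0, up to 2.08 for Adipoq. The intervals of both ages use a spread pooled over all 4 groups.

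The effect of MatSep at P180 minus that at P10 was negative for all 10 genes, with a median of -1.20, against 0.00 over all tested transcripts. This test of the difference between the ages called none of the 10 genes, and 0% of all tested transcripts. For 9 of the 10, all but Pparg, the test gave a negative difference at an unadjusted p under 0.05, against 4.96% of all tested transcripts. Lep (-0.17 at P180 against 0.84 at P10) had a difference of -1.02 (SE 0.26, adjusted p = 0.196), and Cfd (-0.32 against 0.66) one of -0.98 (SE 0.32, adjusted p = 0.324). At a looser limit, an adjusted p under 0.4, these 2 of the 10 passed, as did 2% of all tested transcripts with a negative difference. Fabp4 (-2.41, SE 0.96), Plin1 (-2.32, SE 0.88) and Adipoq (-1.99, SE 0.82) had larger differences with larger errors, and adjusted p-values of 0.446, 0.413 and 0.463. Without MatSep P10 replicate 1, Lep passed the test (-1.19, adjusted p = 0.0410). The P10 pups enter this difference as well as the comparison at P10, so the 2 are not independent.

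Between the ages, 8 of the 10 genes were lower in MatSep P180 than in MatSep P10 rats, and 2 of the 10 differed in control rats, 1 in each direction. In MatSep rats 49.6% of all tested transcripts were called (22.2% lower and 27.4% higher at P180), and in control rats 45.3% (20.6% lower and 24.7% higher). The median difference over the 10 genes was -1.49 in MatSep rats, against 0.07 over all transcripts, and -0.16 in control rats, against 0.05. The MatSep comparison and the control comparison share no arrays, and one minus the other is the difference between ages in the effect of MatSep given above, which passed for no gene.

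In MatSep rats the largest fall was that of Plin1, which averaged 6.00 ± 0.70 at P180 and 9.19 ± 0.84 at P10 (SD, n = 5 each), a difference of -3.19 (SE 0.62, adjusted p = 0.000282). Fabp4 averaged 7.69 ± 0.64 at P180 and 10.60 ± 0.75 at P10 (-2.90, adjusted p = 0.0015), and Pparg 6.31 ± 0.25 and 8.34 ± 0.72 (-2.03, adjusted p = 0.000526). These 3 genes, together with Adipoq, Lep and Cfd, had every P180 value below every P10 value, which held for 6 of the 10 genes against 16.8% of all tested transcripts (exact permutation p = 0.00794 for each). Adipoq differed by -1.64 (SE 0.58, adjusted p = 0.0238), Lep by -1.04 (adjusted p = 9.7e-05), Cfd by -1.17 (adjusted p = 0.000269), Retn by -1.61 (adjusted p = 0.0014) and Lipe by -1.38 (adjusted p = 0.00455). Adipoq no longer passed without MatSep P10 replicate 2 (adjusted p = 0.0625) or replicate 3 (0.0505). Lpl differed by -0.26 (95% interval -0.77 to 0.25) and Cidec by 0.31 (-0.44 to 1.06).

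In control rats Cidec was higher at P180, with 8.06, 8.12, 9.01, 8.39 and 8.19 in control P180 replicates 1 to 5, against 6.39, 8.31, 6.91, 6.43 and 6.24 in control P10 replicates 1 to 5. Here 4 of the 5 pups were below every adult, and the difference was 1.5 (SE 0.36, adjusted p = 0.00187, exact permutation p = 0.0317). In MatSep adults the same gene was at 8.66, 8.14, 7.53, 8.64 and 8.41, all within the range of the MatSep pups. Pparg was lower in control adults, at 5.80, 6.36, 6.67, 6.14 and 6.74, than in control pups, whose values are given above (-1.11, SE 0.43, adjusted p = 0.0384). The exact permutation p of Pparg was 0.103, and its call was lost without 1 of 5 arrays (control P180 replicates 1, 2 or 4, control P10 replicates 2 or 3), with adjusted p of 0.0585 to 0.127. Lpl passed without control P10 replicate 2 (0.72 higher at P180, adjusted p = 0.0094), against 0.48 (adjusted p = 0.116) with it. None of the other 8 genes passed with all arrays, and Adipoq differed by 0.35 (95% interval -0.86 to 1.56). The control P180 and control P10 values overlapped for all 10 genes, Cidec and Pparg included.

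**Figure D4:**
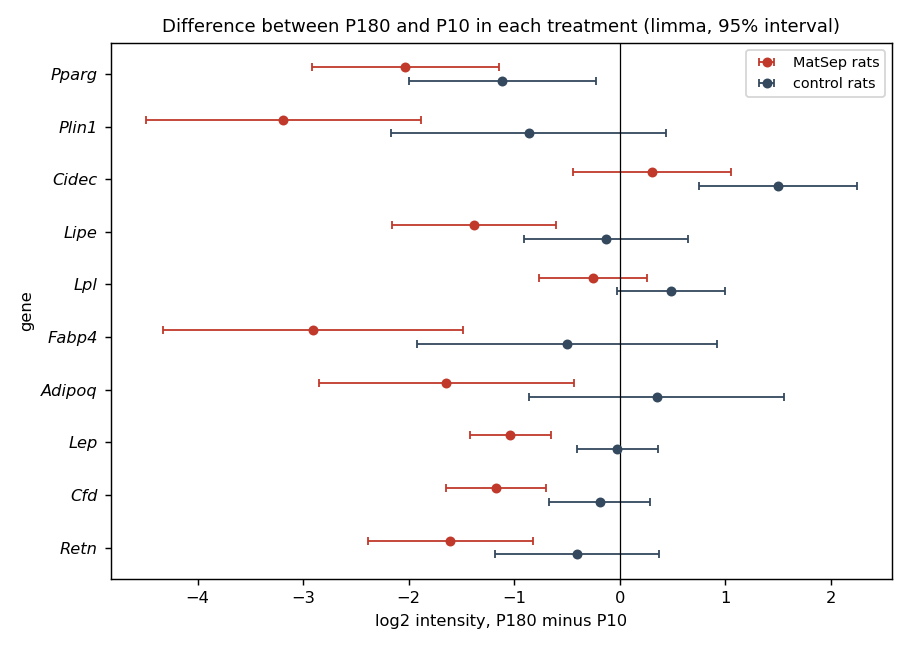
Difference in mean log2 intensity between P180 and P10 for each gene in MatSep rats (red, upper point of each pair) and control rats (dark, lower point), with the 95% interval of the limma fit. In MatSep rats 8 intervals lie below 0, and in control rats that of Pparg lies below 0 and that of Cidec above it.

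The other genes of fat cells and fat metabolism were read from lists, each without the 10 genes. At P10 none of the lists had a gene past the adjusted test. Of all tested transcripts 48% had the higher mean in MatSep pups, and 5.1% had an unadjusted p under 0.05 in that direction. Of 16 genes of triglyceride and fatty acid synthesis, 13 had the higher mean in MatSep pups and 7 an unadjusted p under 0.05 in that direction, with a median difference of 0.21. Scd, the stearoyl-CoA desaturase, differed by 2.08 (SE 0.59, adjusted p = 0.237) and Thrsp, an inducer of lipogenic genes, by 2.09 (adjusted p = 0.339). Of 9 lipolysis genes all 9 had the higher mean in MatSep (median 0.27, 5 at an unadjusted p under 0.05), with Prkar2b, a regulatory subunit of protein kinase A, at 0.94 (adjusted p = 0.352) and Pnpla3, a lipase and acyltransferase of lipid droplets, at 0.40 (adjusted p = 0.339). Of 12 lipid droplet genes 10 had the higher mean (median 0.36, 4 at an unadjusted p under 0.05). Of 8 adipogenic transcription factors 7 had the higher mean (median 0.19, 2 at an unadjusted p under 0.05), and Ebf2, a factor of brown adipocyte precursors, differed by 1.41 (SE 0.43, adjusted p = 0.284). Of 6 genes of the insulin response 5 had the higher mean (median 0.36), with Trarg1, a regulator of glucose transporter traffic, at 1.29 (adjusted p = 0.283) and Slc2a4, the insulin-sensitive glucose transporter itself, at 0.52 (adjusted p = 0.329). Of 9 genes of fatty acid uptake and binding 6 had the higher mean (median 0.08). Of 11 adipokine and adipokine receptor genes 8 had the higher mean (median 0.18), and Rarres2, which encodes chemerin, differed by 0.54 (SE 0.14, adjusted p = 0.217). Of 12 preadipocyte and stromal progenitor genes none had an unadjusted p under 0.05, and their median was 0.07. Hcar1, the lactate receptor of adipocytes, differed by 0.50 (adjusted p = 0.143), whereas the list of 12 further mature adipocyte genes that holds it had a median of 0.01, with 4 genes higher and 2 lower at an unadjusted p under 0.05.

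At P180 the same lists had medians between -0.29 and 0.01 in MatSep against control rats, with no gene past the adjusted test. The lowest was that of 6 genes of the insulin response, in which Pdk4, a brake on glucose oxidation, differed by -0.48 and Irs1, a docking protein of the insulin receptor, by -0.28 (both adjusted p over 0.4). In that list 3 of the 6 genes were lower at an unadjusted p under 0.05, against 3.11% of all tested transcripts. The synthesis list had 1 gene higher and 1 lower at that limit, the preadipocyte list 1 lower, and the remaining lists none. Comparing P180 with P10 in MatSep rats, 10 of the 16 synthesis genes were called lower and 1 higher, and in control rats 6 lower and 1 higher. Of all tested transcripts 22.2% were called lower and 27.4% higher in MatSep rats, and 20.6% lower and 24.7% higher in control rats. Of the 9 lipolysis genes 1 was called lower and 1 higher in MatSep rats, which is not above these shares. Among them was Mgll, the monoglyceride lipase, 1.13 higher at P180, and the median over the 9 genes was 0.09.

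The genes whose pattern was most like Adipoq were sought over the deviations of the 20 arrays from their group means. The closest was Ucp1 (r = 0.97, n = 20 arrays), the uncoupling protein of brown adipocytes, followed among genes outside the 10 by Nnat (0.94), Car3 (0.94), Cidea (0.93), Acsl1 (0.92), Mpo (0.91), Thrsp (0.88), Agpat2 (0.88), Mreg (0.88) and Dgat2 (0.87). Nnat had 2 transcripts, and the other one differed by -0.33 between MatSep and control pups (SE 0.15, adjusted p = 0.489), opposite in sign to the one that followed Adipoq (8.93 ± 0.48 in MatSep and 7.63 ± 0.99 in control pups, SD, n = 5 each). These points share an array each, and the likeness is a description. Car3 is a carbonic anhydrase of fat and muscle, Cidea a lipid droplet protein of brown adipocytes, and Acsl1, Agpat2 and Dgat2 are enzymes of triglyceride synthesis, whereas Mpo is the myeloperoxidase of neutrophils. Over the 10 arrays at P10 the closest were Car3 (0.99), Nnat (0.98), Ucp1 (0.98), Cidea (0.97) and Thrsp (0.97). Over the 10 arrays at P180 they were Tulp3 (0.96), Cox8b (0.91), Rnf185 (0.91), Thrsp (0.90) and Rnf170 (0.89), and of these Thrsp alone was also among the closest at P10.

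Ucp1 averaged 11.16 ± 1.07 in MatSep P10 and 9.07 ± 2.12 in control P10 pups (SD, n = 5 each), and 6.27 ± 0.16 in MatSep P180 and 6.86 ± 1.03 in control P180 rats. Its difference at P10 was 2.09 (SE 0.74, adjusted p = 0.340), close in size to that of Adipoq, and of 10 brown adipocyte genes 7 had the higher mean in MatSep pups (median 0.55). The summed intensity of these 10 genes was 4393 to 12783 in MatSep and 2771 to 10378 in control pups. White and brown adipocytes cannot be told apart by the 10 genes at P10, since Adipoq and Ucp1 followed each other across the arrays.

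The 10 genes also followed one another. At P10 the correlation with Adipoq over the 10 pups ran from r = 0.80 (Lep) to 0.99 (Fabp4), with Spearman's rho of 0.88 to 1 over 9 relations. With permutation p-values adjusted over the 18 relations of both ages, all 9 passed 0.05, the largest being 0.015 for Lep. Without the 2 pups farthest from the median of Adipoq, r was 0.79 to 0.98, within the run of 6 pups 0.82 to 0.99, and for deviations from the group means 0.62 to 0.98. At P180 r ran from 0.42 (Cidec) to 0.73 (Fabp4) and rho from 0.31 to 0.62. Only Fabp4 (adjusted permutation p = 0.020) and Plin1 (0.042) passed by r, and none by rho, the smallest adjusted permutation p of rho being 0.11. Without the 2 adults farthest from the median of Adipoq, r fell to 0.46 for Plin1, 0.01 for Retn and -0.15 for Cidec, so those relations depended on 2 rats.

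Markers of some other cells that kidney vessels could carry also had higher means in MatSep pups. Over all tested transcripts the share with the higher mean was 48%, and 5.1% were higher at an unadjusted p under 0.05. All 12 measured fibroblast genes had the higher mean in MatSep pups (median 0.51, 9 at an unadjusted p under 0.05), and 1 of them passed the adjusted test, Sfrp4, a secreted Wnt antagonist (1.55, adjusted p = 0.0218). Their summed intensity was 28865 to 40609 in MatSep and 18445 to 30208 in control pups, and the mean of their log2 intensities was 10.17 in control replicate 2 and 10.12 in control replicate 3, against 9.31 to 9.70 in the other controls. All 10 macrophage genes also had the higher mean (median 0.43, 7 at an unadjusted p under 0.05), with sums of 1064 to 1560 in MatSep and 779 to 1200 in control pups. As a mean of log2 intensities, macrophage genes were highest in replicate 2 of both groups (7.08 in MatSep and 6.73 in control pups). Control replicate 3 (6.44) lay below control replicate 1 (6.49) there. All 6 smooth muscle genes had the higher mean as well (median 0.50, none at an unadjusted p under 0.05), with sums of 6212 to 12140 in MatSep and 3711 to 10858 in control pups. Among the controls, the mean of their log2 intensities was highest in replicates 3 (10.37) and 2 (9.90). Control replicate 4, which was low for the adipocyte genes, was close to replicate 2, at 9.81. MatSep replicate 2, the highest MatSep pup for 8 of the 10 adipocyte genes, was second lowest of the MatSep pups here. It was at 9.7, against 10.43 to 10.53 in MatSep replicates 3 to 5. The higher mean in MatSep was also found for 5 of 6 lymphatic endothelium genes (median 0.18) and 3 of 4 genes of capillary endothelium other than Fabp4 (median 0.36), with 2 of each list at an unadjusted p under 0.05. Podocyte genes had the higher mean in 3 of 3 (median 0.17) and nerve and Schwann cell genes in 4 of 5 (0.11). Skeletal muscle genes had it in 3 of 4 (0.11) and T and B cell genes in 2 of 7 (-0.06). Collecting duct genes, a list that could share Pparg, had the lower mean in 7 of 7 (median -0.29, sums of 4123 to 8099 in MatSep and 5466 to 9159 in control pups). Vascular endothelium, with 4 of 9 genes higher (median -0.01), mesothelium, with 4 of 8 (0.01), adrenal cortex, with 3 of 8 (-0.04), and proximal tubule, with 1 of 8 (-0.05), had no common direction or few higher means. At P180, fibroblast genes had a median difference of -0.24 and macrophage genes one of -0.04. At an unadjusted p under 0.05, 3 of the 12 fibroblast genes were lower there, and 1 macrophage gene was higher and 1 lower. Of all tested transcripts 3.11% were lower and 2.65% higher at that limit. The part of these cells in the differences of the adipocyte genes was not tested.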

How the data were processed

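Renal vessels of 20 male rats, 5 in each of 4 groups taken from the labels, were hybridised to 1 array each. The authors deposited linear signal intensity per transcript, normalized per the workbook by quantiles at gene level. Their processing notes name RMA and Partek, and versions and annotation release are not given in the sources used here. Such normalization removes shifts of a whole array, so only changes relative to other transcripts remain. The authors' own fold changes and p-values were not used. Intensities were taken to log2.

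The 18511 transcripts to which the platform table gives 1 gene symbol were tested, out of 36685, and 575 with several symbols and 17599 with no symbol listed were left out. Differences were fitted with limma (version 3.58.1, R 4.3.3) on 4 group means over all 20 arrays (16 residual degrees of freedom), with Benjamini-Hochberg adjustment over the tested transcripts and a threshold of 0.05. Two-sided exact permutation tests over samples were added for each gene. Correlations used permutation tests. The script was tested on simulated data. The number of arrays limits the precision. All 10 genes are named, with up to 4 further genes a list by smallest p, and the genes most like Adipoq by correlation. The genes and lists were chosen with earlier results of these data known. Alternatives were array weights, centring, further quantile normalization, dim filters, all transcripts, other thresholds, blocks and leaving out each array.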

Additional observations from a re-analysis of the deposited data

Results flagged for a closer look

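Fabp4 in MatSep P180 replicate 3 had a log2 intensity of 8.82, against 7.23 to 7.55 in the other 4 MatSep P180 rats, and its gap to the next value was 0.801 of the range of the group, above the limit of 0.710 for 5 samples. It was the only one of 40 gene and group combinations to pass that limit, and chance passes about 1 in 20. The same rat was among the 3 highest of the 10 adults for 7 of the 10 genes.

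For Cfd, subtracting the P10 effect of MatSep from its P180 effect gave -0.982 on the log2 scale. All 5 MatSep P180 values were below the control mean, and all 5 MatSep P10 values were above theirs. The limma test of the difference itself gave an adjusted p of 0.324.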

How the results depend on the processing

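The number of the 10 genes called changed with these settings, each run on its own. Except for the looser thresholds, the share of all tested transcripts called is not given, here or for the block below. In MatSep against control at P10, where none was called, array weights (0.531 to 2.649) called 8, all but Pparg and Retn, an unadjusted p under 0.05 called 10, and the fits without 1 array called 0 to 5, with exact permutation tests passing for 1 to 8. Of the P10 arrays, control replicate 2, the highest control for all 10 genes, had the lowest weight (0.596). MatSep replicate 4 (2.649) and control replicate 4 (2.128), the lowest pup for Adipoq, had the highest weights. For the difference between ages in the MatSep effect, array weights called 1 (Lep), an unadjusted p under 0.05 called 9, an adjusted p under 0.4 called 2, and fits without 1 array called 0 to 1. For control P180 against control P10, the fit of those groups alone, further quantile normalization and all transcripts each called 1 (Cidec) in place of 2, and fits without 1 array called 1 to 2, with exact tests passing for 1 to 2. Array weights also called 2 there, but Lpl (0.643, adjusted p = 0.0293) in place of Pparg (-0.804, adjusted p = 0.131). With array weights, Cidec differed by 0.051 between MatSep and control at P180, and Lipe by 0.077, Fabp4 by 0.117 and Lep by 0.029 between control P180 and control P10; with median centring the last was 0.007. These signs were opposite to those with equal weights or no centring. The cause was not tested.

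Leaving out 1 array turned the sign of small differences. In MatSep against control at P180 the range was -0.172 to 0.062 for Pparg, -0.175 to 0.11 for Cidec, -0.045 to 0.071 for Lpl and -0.032 to 0.329 for Adipoq. In control P180 against control P10 it was -0.339 to 0.159 for Lipe, -1.123 to 0.132 for Fabp4, -0.173 to 0.946 for Adipoq and -0.083 to 0.064 for Lep. Of 615 differences of single genes under settings other than leaving out 1 array, 569 were counted as the same. For fits this meant the same direction and side of the threshold. For differences within runs of sample numbers it meant a value within the pooled SD of the main difference, whatever its sign. Removing transcripts with a mean log2 intensity under 5 left out Lep.

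Rats with the same replicate number in both treatments were not shown to be pairs: the correlation of their deviations was over 0.1 for 4 of 5 numbers at P10 (0.092 to 0.615) and for 2 of 5 at P180 (-0.211 to 0.214). At P10, 4 of 5 MatSep and 4 of 5 control pups correlated best with their own number. With the replicate number as a block, 2 genes were called at P10 (Lep and Lipe) and 2 in the difference between ages (Lep and Cfd).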
